A study of Homo sapiens with 45 samples.

Results

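The comparison was between HCT116 cells that lack both TNRC6A and TNRC6B and HCT116 cells that lack TNRC6B alone. It used the 3 TNRC6A/B KO and 3 TNRC6B KO whole-cell small RNA libraries, 6 of the 45 libraries of the series, chosen by their labels. HCT116 is an epithelial line from a human colorectal carcinoma. The TNRC6A/B KO cells carried the genotype TNRC6A-/-, TNRC6B-/-, and the TNRC6B KO cells TNRC6B-/-, so TNRC6B was knocked out in both groups. TNRC6A KO cells (TNRC6A-/-) and WT cells, with 3 libraries each, were used to place the values, and WT Argonaute immunoprecipitates to give miRNA levels there. The labels name no treatment and the same growth medium for all. The labels number biological replicates without naming clones or saying how the replicates were separated. Each knockout may therefore be 1 line. Except in the permutation tests, the p-values measure a spread within groups that was pooled over 24 whole-cell libraries of 8 groups. Argonaute knockouts are among these groups, and the spread may be technical.

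TNRC6 proteins (the GW182 family) are the scaffolds that link Argonaute proteins, which carry miRNAs, to the enzymes that shorten and decap target mRNAs. Human cells have the paralogs TNRC6A, TNRC6B and TNRC6C, and TNRC6C was not knocked out here. A miRNA is cut from a hairpin and recognises its targets mainly through its seed, bases 2 to 8. Small RNA libraries count miRNAs, and beside them short pieces of tRNA, rRNA, snoRNA, vault RNA, Y RNA and mRNA.

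The miRNAs that passed the test and had a RefSeq mature sequence are shown with the seed in capitals, because they carry the miRNA differences described first, and no seed occurs in more than 1 of them. let-7a-5p, the most abundant miRNA in WT cells, is shown for comparison. Positions are those of RefSeq on GRCh38.p14.
miR-4745-3p, chr19:804977-804999, plus strand, hairpin overlapping an exon of PTBP1: uGGCCCGGcgacgucucacgguc
miR-6800-3p, chr19:49832076-49832096, plus strand, hairpin overlapping an exon of MED25: cACCUCUCcuggcaucgcccc
miR-1229-3p, chr5:179798278-179798300, minus strand, in an intron of MGAT4B: cUCUCACCacugcccucccacag
miR-139-5p, chr11:72615102-72615124, minus strand, in an intron of PDE2A: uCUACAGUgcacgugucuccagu
miR-224-5p, chrX:151958628-151958652, minus strand, hairpin overlapping an exon of GABRE: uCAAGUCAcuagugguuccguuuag
miR-448, chrX:114823524-114823545, plus strand, in an intron of HTR2C: uUGCAUAUguaggaugucccau
miR-942-5p, chr1:117094655-117094676, plus strand, in an intron of TTF2: uCUUCUCUguuuuggccaugug
let-7a-5p, 1 of its 3 loci at chr9:94175962-94175983, plus strand, in an intron of AL158152.2: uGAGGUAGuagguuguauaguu

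The libraries held 3592915 to 7888782 counts in TNRC6A/B KO cells, against 3370405 to 4752703 in TNRC6B KO cells. TNRC6A/B KO replicate 3 stood apart from replicates 1 and 2 of its group: it was the deepest library, 13.2% of its counts were miRNA, and its normalisation factor for miRNAs was 0.471, against 0.861 and 1.05. TNRC6 transcript fragments went with the labels. TNRC6A fragments stood at 18.7, 17.7 and 13.0 normalised CPM in the TNRC6A/B KO libraries, against 37.7, 54.1 and 37.1 in the TNRC6B KO libraries and 16.6, 23.9 and 21.6 in the TNRC6A KO libraries. TNRC6B fragments were at 20.5, 18.4 and 19.1 normalised CPM in the TNRC6A/B KO libraries, against 11.2, 33.4 and 31.0 in the TNRC6B KO libraries and 59.2, 61.8 and 76.1 in the TNRC6A KO libraries. Fragments of the targeted genes remained in every knockout. Colon epithelium miRNAs were present throughout, and all 8 listed were tested. Together they made up 0.869% to 1.77% of miRNA counts in TNRC6A/B KO cells, against 1.30% to 1.43% in TNRC6B KO cells. Most of these counts were miR-200c-3p, at 2884 to 6406 per library, while miR-192-5p, miR-194-5p and miR-215-5p had 8 to 72. Marker lists of other cell types took smaller shares, at 0.0292% to 0.0409% of miRNA counts for blood in TNRC6A/B KO cells, against 0.0240% to 0.0305% in TNRC6B KO cells. Neural markers made up 0.0892% to 0.115% in TNRC6A/B KO cells, against 0.160% to 0.181% in TNRC6B KO cells, without overlap. Muscle and stromal markers made up 0.162% to 0.225% in TNRC6A/B KO cells, against 0.182% to 0.205% in TNRC6B KO cells. Single markers of these lists exceeded miR-192-5p, miR-194-5p and miR-215-5p: miR-126-3p had 231 to 1097 counts per library, miR-145-5p 188 to 430 and the neural miR-128-3p 227 to 825. Pluripotency markers made up 0.00664% to 0.0201% in TNRC6A/B KO cells, against 0.0134% to 0.0156% in TNRC6B KO cells. No listed marker of these 4 types was at 0 counts in the 6 libraries. Their part in the results below was not tested.

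Of the RNA classes, most overlapped between the groups. Mature miRNAs took 9.0%, 8.17% and 13.2% of all counts in the TNRC6A/B KO libraries, against 7.94%, 7.27% and 8.40% in the TNRC6B KO libraries. The groups overlapped, and the means of 10.1% ± 2.68 and 7.87% ± 0.568 (SD, n = 3 each) did not differ beyond the spread (two-sided exact permutation test, p = 0.2, where 3 against 3 cannot go below 0.1). Without TNRC6A/B KO replicate 3 the difference of means was 0.715 percentage points, in place of 2.25. Of 13 RNA classes, 1 did not overlap between the groups. That class, which holds Y RNA, 7SK and 7SL RNA (small non-coding RNAs of RNA-protein particles), took 1.7%, 1.6% and 2.0% of counts in TNRC6A/B KO libraries, against 1.4%, 1.4% and 1.2% in TNRC6B KO libraries (two-sided exact permutation test, p = 0.1, adjusted over the classes p = 0.433). In these bulk libraries fewer cells with an RNA and less RNA per cell cannot be told apart. Pieces of mRNA took 7.61% ± 0.945 in TNRC6A/B KO cells, against 7.77% ± 0.208 in TNRC6B KO cells (SD, n = 3 each). The plot of class shares also shows the WT libraries, in which cytosolic tRNA pieces took 12.9% to 20.2% of counts, against 0.720% to 1.20% in all 9 TNRC6 knockout libraries.

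**Figure D1:**
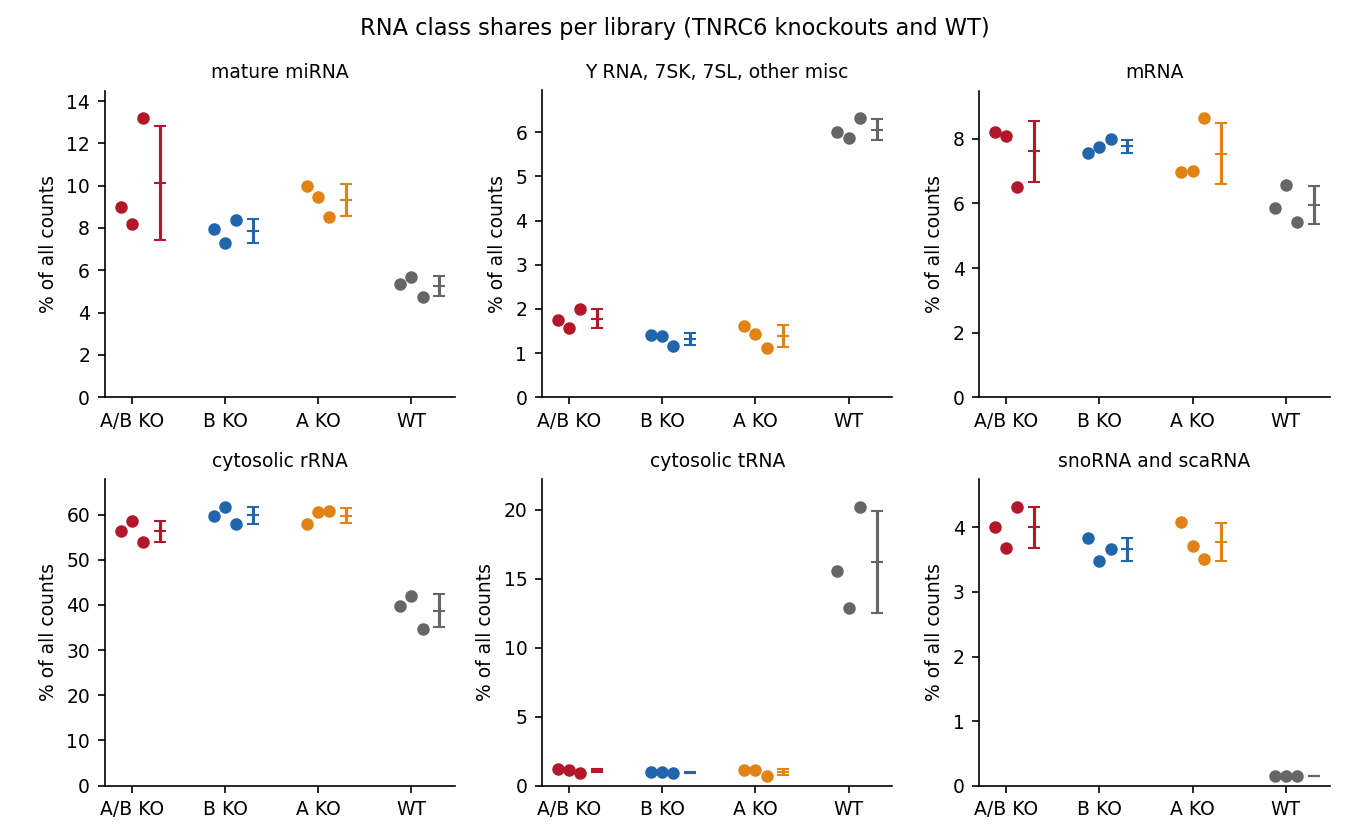
Share of all counts (%, y axis) taken by 6 RNA classes in each library of TNRC6A/B KO, TNRC6B KO, TNRC6A KO and WT cells (x axis); points are libraries, and bars are the mean ± SD of 3. The 2 groups compared sit close in most panels, TNRC6A/B KO replicate 3 has the highest miRNA share (13.2%), and WT differs from all TNRC6 knockouts in tRNA and snoRNA.

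No abundant miRNA passed the test. The 10 most abundant miRNAs of WT cells took 48.0%, 42.9% and 57.5% of miRNA counts in the TNRC6A/B KO libraries, against 49.8%, 48.4% and 50.3% in the TNRC6B KO libraries, a difference of -0.03 percentage points (two-sided exact permutation test, p = 1). TNRC6A/B KO libraries spread over a range that contains all 3 TNRC6B KO libraries. let-7a-5p, a member of the family that restrains growth-promoting genes, stood at 189288, 136568 and 526069 normalised CPM in the TNRC6A/B KO libraries, against 212125, 213543 and 243300 in the TNRC6B KO libraries. Normalised CPM are CPM of the library's miRNA total scaled by its TMM factor, so the low factor of TNRC6A/B KO replicate 3 raises all of its values. The let-7a-5p groups overlapped, with a log2 fold change of 0.35 ± 0.33 (SE), which was -0.45 without that library. miR-7-5p, which is destroyed when it pairs with the long RNA Cyrano in mice, had 12117, 10345 and 11763 normalised CPM in TNRC6A/B KO libraries, against 17304, 17001 and 19903 in TNRC6B KO libraries. Its groups did not overlap, yet the log2 fold change of -0.66 ± 0.28 did not pass (edgeR quasi-likelihood test, Benjamini-Hochberg adjusted p = 0.542).

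Few miRNAs differed between TNRC6A/B KO and TNRC6B KO cells. Of 1997 miRNAs tested, 12 passed at an adjusted p under 0.05, which is 0.601% (edgeR quasi-likelihood test, Benjamini-Hochberg), with 7 higher and 5 lower in TNRC6A/B KO cells. The median log2 fold change over all miRNAs was -0.002. All 12 lay well below the abundant miRNAs in level, as the plot of change against level shows.

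**Figure D2:**
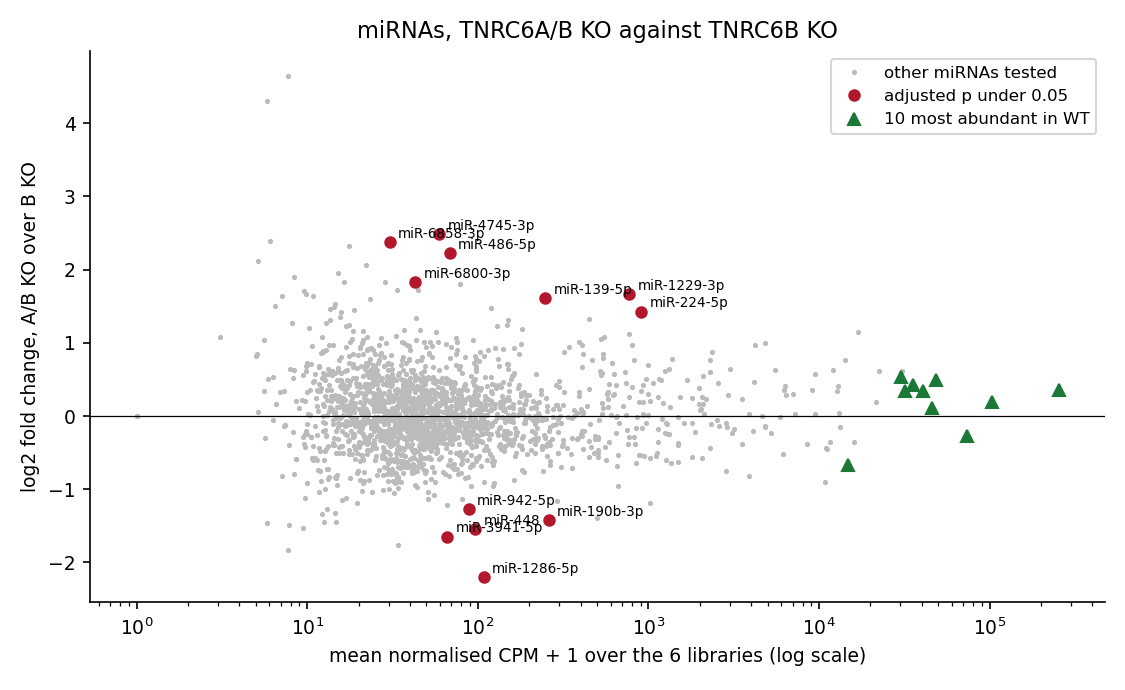
log2 fold change of TNRC6A/B KO over TNRC6B KO (y axis) against the mean normalised CPM + 1 over the 6 libraries (x axis, log scale) for 1997 miRNAs; red points passed the test, and green triangles are the 10 most abundant miRNAs in WT. The 12 red points have middle or low levels, and the triangles lie between -0.66 and 0.53.

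The miRNA with the largest rise was miR-4745-3p, at 94.4, 65.6 and 138 normalised CPM in the TNRC6A/B KO libraries, against 20.1, 14.1 and 19.3 in the TNRC6B KO libraries. Every TNRC6A/B KO library lay above every TNRC6B KO library, and the log2 fold change was 2.48 ± 0.42 (SE; adjusted p = 0.000719 by edgeR's quasi-likelihood test). TNRC6A KO libraries lay between, at 34.3 to 54.9. miR-1229-3p, a mirtron that is freed by splicing and debranching instead of by the Microprocessor, had 964, 652 and 1901 normalised CPM in TNRC6A/B KO libraries, against 395, 367 and 351 in TNRC6B KO libraries. Its groups did not overlap, TNRC6A/B KO replicate 3 was highest, and the log2 fold change was 1.66 ± 0.31 (adjusted p = 0.00244, edgeR). It missed the threshold without TNRC6A/B KO replicate 3 (adjusted p = 0.079, edgeR) and with only these groups in the fit. In TNRC6A KO libraries miR-1229-3p stood at 942, 881 and 1037, within the TNRC6A/B KO range. miR-139-5p, whose level is often low in colorectal tumours, had 315, 210 and 588 normalised CPM in TNRC6A/B KO libraries, against 44.3, 127 and 197 in TNRC6B KO libraries. The lowest TNRC6A/B KO library lay just above the highest TNRC6B KO library, with a log2 fold change of 1.62 ± 0.37 (adjusted p = 0.0232, edgeR). The miR-139-5p call held in 3 of 6 fits with 1 library left out. TNRC6A KO libraries held 388 to 465.

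miR-224-5p, often high in colorectal tumours, had 1727, 1626 and 621 normalised CPM in TNRC6A/B KO libraries, against 427, 508 and 539 in TNRC6B KO libraries. Replicates 1 and 2 of the TNRC6A/B KO were far above the TNRC6B KO, and the log2 fold change was 1.43 ± 0.34 (adjusted p = 0.0249, edgeR). Replicate 3 was close to the TNRC6B KO and lay above it only through its low TMM factor. It held 302 of 1039644 miRNA counts, against 106 of 295218, 144 of 345446 and 112 of 283055 in the TNRC6B KO libraries. As a share of miRNA counts, that was below every TNRC6B KO library. miR-486-5p, known for its high level in red blood cells, had 42.9, 42.6 and 247 normalised CPM in TNRC6A/B KO libraries, against 12.1, 31.8 and 28.9 in TNRC6B KO libraries. The 2.22 log2 fold change rested on TNRC6A/B KO replicate 3, without which it was 0.80 (adjusted p = 0.891, edgeR). Other blood miRNAs did not pass: the list of 8 blood miRNAs had 1 of 6 tested higher, against 7 of 1997 over all miRNAs, and a median log2 fold change of 0.46. miR-6858-3p (60 counts in TNRC6A/B KO cells, 7 in TNRC6B KO cells) and miR-6800-3p (80 counts in TNRC6A/B KO cells, 14 in TNRC6B KO cells) rose by 2.38 and 1.82 on the log2 scale at low depth. The miR-6858-3p value ranged from 2.02 to 3.39 with 1 library left out, and its call was lost in 3 of 6 such fits. The miR-6800-3p value ranged from 1.51 to 2.32, and its call held in only 1 of 6 such fits. It was also lost with DESeq2 and with only these groups in the fit.

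The 5 miRNAs that fell were led by miR-1286-5p, at 42.9, 49.2 and 24.7 normalised CPM in the TNRC6A/B KO libraries, against 145, 205 and 178 in the TNRC6B KO libraries. The groups lay far apart, with a log2 fold change of -2.20 ± 0.38 (adjusted p = 0.000719, edgeR). TNRC6A KO libraries, at 42.8, 61.4 and 19.4, overlapped the TNRC6A/B KO. miR-190b-3p had 112, 236 and 80.1 normalised CPM in TNRC6A/B KO libraries, against 370, 346 and 414 in TNRC6B KO libraries (log2 fold change -1.42, adjusted p = 0.0232, edgeR). miR-3941-5p, miR-448 and miR-942-5p fell by 1.65, 1.54 and 1.28 on the log2 scale, and the groups did not overlap in any of the 3. In AGO2 immunoprecipitates of WT cells (3 libraries), miR-448 had 0 to 0.145 CPM of miRNA counts and miR-1286-5p 0.145 to 0.7, while miR-942-5p had 148 to 166. In WT whole-cell RNA miR-448 had 0 to 6.91 and miR-1286-5p 0 to 6.81, against 65.4 to 85.2 for miR-942-5p. AGO1 immunoprecipitates held 0 to 2.57 of miR-448 and 1.29 to 9.78 of miR-1286-5p, and pan-AGO immunoprecipitates 0.269 to 5.01 of miR-448 and 0.269 to 1.25 of miR-1286-5p. miR-190b-3p had 38.6 to 188 in AGO1 immunoprecipitates, against 0.980 to 1.59 in AGO2 immunoprecipitates and 19.2 to 27.6 in WT whole-cell RNA. miR-3941-5p had 21.9 to 138 in AGO1 immunoprecipitates, against 1.12 to 3.77 in AGO2 immunoprecipitates and 34.5 to 44.3 in WT whole-cell RNA.

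**Figure D3:**
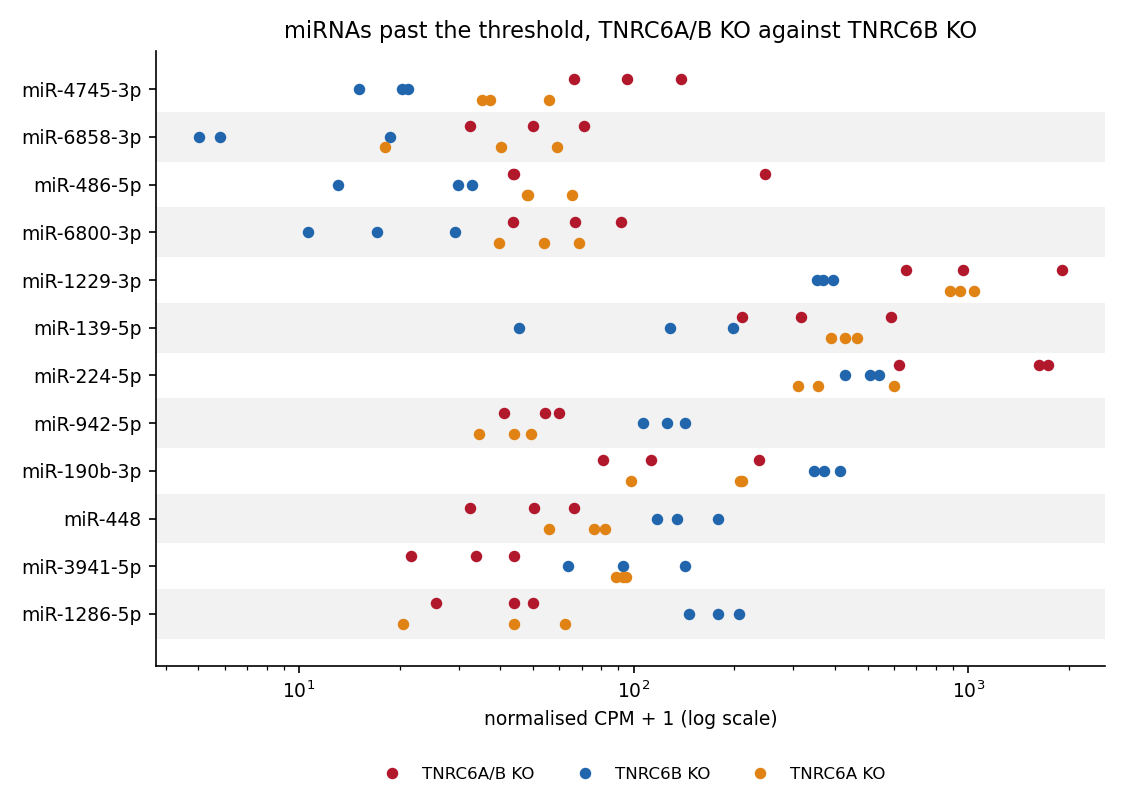
Normalised CPM + 1 (x axis, log scale) of the 12 miRNAs that passed (y axis), in each library of TNRC6A/B KO (red), TNRC6B KO (blue) and TNRC6A KO (orange). The red and blue points of a miRNA do not overlap, which for miR-224-5p rests on the low TMM factor of TNRC6A/B KO replicate 3. The orange points overlap the red ones for several miRNAs, miR-1229-3p, miR-1286-5p, miR-942-5p and miR-190b-3p among them.

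The number of miRNA calls was not stable. It was 32 without TNRC6A/B KO replicate 2, 7 without TNRC6A/B KO replicate 3, 4 without TNRC6B KO replicate 1, 4 without TNRC6B KO replicate 2 and 5 without TNRC6B KO replicate 3. Scaling to the miRNA total alone left 2 calls, both higher, and scaling to all counted RNAs gave 18 higher and 1 lower, so the balance of rises and falls depends on the scale. miR-4745-3p passed in every setting in which it was tested, and miR-1286-5p in all of them but scaling to the miRNA total. The other 10 each lost their call without at least 1 library.

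By family, no miRNA list had more than 1 member past the test, while the share of miRNA counts of several lists did not overlap between the groups. Over all 1997 miRNAs tested, 7 were called higher and 5 lower (together 0.601%). Their median log2 fold change of -0.002 means that about as many lay above 0 as below. Shares within a library depend on each other. How often lists of other miRNAs, or single features that did not pass, would not overlap was not tested. All 9 let-7 members tested had a log2 fold change above 0, with a median of 0.53, but none passed. The let-7 family took 35%, 31% and 47% of miRNA counts in TNRC6A/B KO libraries, against 36%, 34% and 36% in TNRC6B KO libraries, and only TNRC6A/B KO replicate 3 lay above them. The miR-23/27/24 clusters had 9 of 9 members above 0 with a median of 0.42, and their share was 6.60%, 6.29% and 6.39% in TNRC6A/B KO libraries, against 5.27%, 5.20% and 5.29% in TNRC6B KO libraries. These shares, which use no TMM factor, did not overlap, while no single member passed and miR-23a-3p was at -0.04 without TNRC6A/B KO replicate 3. The miR-17-92 and paralog clusters, with 16 members tested, had a median of -0.03 and a share of 8.78%, 9.24% and 6.37% in TNRC6A/B KO libraries, against 10.2%, 10.1% and 10.3% in TNRC6B KO libraries, without overlap. miR-92a-3p of this family had 7907, 7021 and 7639 normalised CPM in TNRC6A/B KO libraries, against 13012, 14578 and 14400 in TNRC6B KO libraries, a log2 fold change of -0.90 ± 0.30 that did not pass (adjusted p = 0.253, edgeR). The miR-200 family, which holds epithelial cells in their state by repressing ZEB1 and ZEB2, had 9 members tested, none past the test, and a median of 0.17. The miR-15/16, miR-30 and miR-10/99/100/125 lists had 0 calls and medians of -0.02, 0.23 and 0.22. The miR-15/16 share was 1.04%, 1.03% and 0.643% in TNRC6A/B KO libraries, against 1.15%, 1.32% and 1.11% in TNRC6B KO libraries, lower without overlap. Shares of the miR-200, miR-30 and miR-10/99/100/125 lists overlapped. Of 9 substrates of target-directed decay, 0 passed, with a median of 0.33, while their share was 2.97%, 2.94% and 3.17% in TNRC6A/B KO libraries, against 3.37%, 3.42% and 3.46% in TNRC6B KO libraries, lower without overlap. Among 23 miRNAs made without the Microprocessor 1 rose, miR-1229-3p, 18 lay above 0, and the median was 0.39. Their share was 0.67%, 0.59% and 0.68% in TNRC6A/B KO libraries, against 0.47%, 0.50% and 0.46% in TNRC6B KO libraries, with no overlap.

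Among colorectal cancer-associated miRNAs, 1 of 12 tested rose, miR-224-5p, against 7 of 1997 over all miRNAs, with a median of 0.37. Their share was 8.58%, 7.72% and 8.87% in TNRC6A/B KO libraries, against 6.90%, 7.64% and 7.47% in TNRC6B KO libraries, without overlap. miR-21-5p, the abundant oncogenic miRNA of this list, had 21376, 15544 and 32477 normalised CPM in TNRC6A/B KO libraries, against 10705, 8530 and 12210 in TNRC6B KO libraries. Its groups did not overlap, and the log2 fold change of 1.14 ± 0.34 did not pass (adjusted p = 0.138, edgeR). Of the p53-responsive miRNAs, 6 were tested, 0 passed and the median was 0.52. Their share, at 0.159%, 0.196% and 0.191% in TNRC6A/B KO libraries against 0.124%, 0.134% and 0.123% in TNRC6B KO libraries, did not overlap either. miR-34a-5p, a direct p53 target, had 689, 701 and 1769 normalised CPM in TNRC6A/B KO libraries, against 374, 618 and 631 in TNRC6B KO libraries (log2 fold change 0.97 ± 0.34, adjusted p = 0.272, edgeR).

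The balance between the arms of a hairpin, log2 of the 5p over the 3p count, differed in 1 of 147 hairpins (0.68%; limma, Benjamini-Hochberg). It was miR-1229, the hairpin whose 3p arm rose. Its arm ratio was -3.02, -3.28 and -3.89 in TNRC6A/B KO libraries, against -1.95, -1.26 and -1.84 in TNRC6B KO libraries, a log2 difference of -1.71 ± 0.36 (adjusted p = 0.014, limma). The 5p arm had only 41, 20 and 62 counts in TNRC6A/B KO libraries, against 25, 43 and 20 in TNRC6B KO libraries. The call was lost without TNRC6A/B KO replicate 3 and without TNRC6B KO replicate 2, and the hairpin could not be tested where both arms needed 50 counts. miR-139 had an arm ratio of 1.96, 1.40 and 2.32 in TNRC6A/B KO libraries, against -0.61, 1.24 and 1.09 in TNRC6B KO libraries, which did not pass (adjusted p = 0.384, limma).

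Setting TNRC6A/B KO against TNRC6A KO cells, which adds the loss of TNRC6B to the loss of TNRC6A, gave 3 calls among the same 1997 miRNAs (0.15%; 5 with the replicate number as a block). miR-224-5p rose here too, with 355, 310 and 598 normalised CPM in TNRC6A KO libraries and a log2 fold change of 1.65 ± 0.34 (adjusted p = 0.0111, edgeR). TNRC6A/B KO replicate 3, at 621, lay just above the highest of these. miR-302b-3p, a miRNA of pluripotent cells, was lower, at 37.2, 32.8 and 20.5 normalised CPM in TNRC6A/B KO libraries, against 270, 181 and 80.8 in TNRC6A KO libraries (log2 fold change -2.55 ± 0.42, adjusted p = 0.00058, edgeR). miR-302a-5p was lower by 1.97 on the log2 scale. Both miR-302 miRNAs were low in the TNRC6B KO and in WT as well, miR-302b-3p at 17.7 to 20.1 and at 4.35 to 20.3. The TNRC6A KO was the high group for both. The TNRC6A/B KO libraries are shared by both comparisons. Without TNRC6A KO replicate 1 the comparison gave 1 call, and without TNRC6A/B KO replicate 3 it gave 6.

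TNRC6A KO cells against WT cells gave 835 calls of 1997 miRNAs (41.8%), 471 higher and 364 lower (edgeR; 763 and 188 with the total of all RNAs as scale). The difference between the effect of TNRC6A loss with TNRC6B absent and its effect with TNRC6B present was called for 601 miRNAs (30.1%), 246 higher and 355 lower (169 and 466 with that scale). Cytosolic rRNA took 53.9% to 61.7% of counts in the TNRC6 knockout libraries, against 34.6% to 41.9% in WT, and snoRNA 3.48% to 4.32%, against 0.144% to 0.148% in WT, beside the tRNA difference given above, so this difference and the effect of the set of libraries cannot be told apart.

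Among the other small RNAs, 4 of 625 passed (0.64%; edgeR), 2 higher and 2 lower. RNY5, a Y RNA that binds the Ro60 protein, had 646, 826 and 855 normalised CPM in TNRC6A/B KO libraries, against 399, 279 and 339 in TNRC6B KO libraries. The groups did not overlap, and the log2 fold change was 1.20 ± 0.24 (adjusted p = 0.0187, edgeR). TNRC6A KO libraries, at 304 to 398, lay with the TNRC6B KO. Of the tRNA pieces, tRNA-Ser-AGA-3-1 rose to 355, 308 and 457 normalised CPM in TNRC6A/B KO libraries, against 215, 182 and 221 in TNRC6B KO libraries (log2 fold change 0.86, adjusted p = 0.0427, edgeR). tRNA-Asn-GTT-2-8 fell by 1.75 on the log2 scale and the nuclear-mitochondrial copy of tRNA-Tyr-GTA by 1.21. Near-identical tRNA genes share reads, so single tRNA genes are uncertain. With only the 2 groups in the fit 0 passed (69 had an unadjusted p under 0.05 in the fit across all groups), and DESeq2 called 9. 0 passed without TNRC6A/B KO replicate 3, TNRC6B KO replicate 2 or TNRC6B KO replicate 3, 1 without TNRC6A/B KO replicate 1 and 2 without TNRC6B KO replicate 1.

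Pieces of longer transcripts were tested per gene, as sums. Of these, 122 of 13004 genes passed (0.938%; edgeR quasi-likelihood test), 70 higher (0.538%) and 52 lower (0.4%) in TNRC6A/B KO cells, against a median log2 fold change over all genes of 0.01. Levels here are normalised CPM of gene sums, gene positions are GENCODE v29 on GRCh38, and a piece of an mRNA is not the mRNA itself, so these values need not follow mRNA abundance. Without TNRC6B KO replicate 1 there were 51 calls, and without replicate 2 or 3 of the same group 55 each. DESeq2 gave 48 higher and 71 lower, and the total of all RNAs as scale gave 51 and 21.

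CDK6, the kinase that drives cells through G1 (chr7:92604921-92836594, minus strand), had 325, 307 and 286 normalised CPM in TNRC6A/B KO libraries, against 119, 111 and 100 in TNRC6B KO libraries. All TNRC6A/B KO libraries were well above all TNRC6B KO libraries, with a log2 fold change of 1.47 ± 0.21 (adjusted p = 0.00013, edgeR), and TNRC6A KO libraries lay between at 228 to 247. CCND1, the cyclin that partners CDK6 (chr11:69641087-69654474, plus strand), had 473, 452 and 449 in TNRC6A/B KO libraries, against 230, 236 and 211 in TNRC6B KO libraries (log2 fold change 1.02 ± 0.18, adjusted p = 0.00198, edgeR), a call that was lost when fragments were scaled to their own total (adjusted p = 0.059, edgeR). CDKN1A, the p21 inhibitor of cyclin-dependent kinases, had 90.7, 75.1 and 133 in TNRC6A/B KO libraries, against 27.3, 41.3 and 41.4 in TNRC6B KO libraries, and TNRC6A KO libraries held 68.4 to 86.4. The CDKN1A groups did not overlap, and its log2 fold change was 1.44 ± 0.21. MDM2, which ubiquitinates p53, had 62.6, 83.6 and 73.4 in TNRC6A/B KO libraries, against 31.3, 40.7 and 34.5 in TNRC6B KO libraries (log2 fold change 1.03, adjusted p = 0.00205, edgeR).

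PLK2, a polo-like kinase, had 74.9, 68.7 and 126 in TNRC6A/B KO libraries, against 25.7, 31.0 and 20.7 in TNRC6B KO libraries, and 69.7 to 83.4 in TNRC6A KO libraries. CYP24A1, which degrades active vitamin D, had 60.9, 50.3 and 56.4 in TNRC6A/B KO libraries, against 17.7, 15.2 and 13.8 in TNRC6B KO libraries. TNRC6A KO libraries stayed below the TNRC6A/B KO in CYP24A1, at 17.6 to 29.4, and the difference from them passed too (log2 fold change 1.22, adjusted p = 0.0119, edgeR; 60 of 13004 genes passed there, 0.461%). SLC2A3, the glucose transporter GLUT3, had 135 counts in TNRC6A/B KO cells, against 2 in TNRC6B KO cells, a ratio of 50.4 with a 95% counting interval from 13.7 to 420 (exact binomial, counting error only). It was uneven within the TNRC6A/B KO, at 33.4, 41.1 and 8.68 normalised CPM, and TNRC6A KO libraries held 7.27 to 35.3. ARID3A, a DNA-binding protein, ATXN1, the ataxin-1 gene, and the unnamed gene AC069503.1 rose by 1.63, 1.57 and 1.94 on the log2 scale.

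The vault RNAs, short RNAs of the vault particle and its relatives, had 3 of 6 entries rise, against 0.538% of all genes, with a median log2 fold change of 1.11. VTRNA2-1 had 320, 298 and 471 normalised CPM in TNRC6A/B KO libraries, against 86.7, 88.1 and 58.6 in TNRC6B KO libraries (log2 fold change 2.22 ± 0.32, adjusted p = 0.00014, edgeR). Its groups did not overlap, and TNRC6A KO libraries lay between at 182 to 264. RF00006 (ENSG00000278815), which also rose, lies inside VTRNA2-1 on the same strand at chr5:136080497-136080597, so the calls are not independent. VTRNA1-2 had 378, 340 and 767 in TNRC6A/B KO libraries, against 162, 143 and 151 in TNRC6B KO libraries, and lost its call without TNRC6A/B KO replicate 3 and without any TNRC6B KO library. VTRNA1-1, VTRNA1-3 and VTRNA3-1P did not pass, with log2 fold changes of 0.54, 0.23 and 0.57. Of the Y RNAs counted with the transcripts, RNY4 had 1557, 1137 and 2739 normalised CPM in TNRC6A/B KO libraries, against 1117, 970 and 943 in TNRC6B KO libraries. RNY4 did not pass (log2 fold change 0.84 ± 0.47), and neither did RNY1 (0.10) or RNY3 (0.30). Over all 290 Y RNA entries tested, mostly near-identical copies that can share reads, 2 rose (RF00019 copies, a Y RNA family), 256 lay above 0 and the median was 0.57.

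Of the falls, STK39, a kinase that regulates ion cotransporters (chr2:167954020-168248141, minus strand), had 8.78, 11.3 and 13.0 normalised CPM in TNRC6A/B KO libraries, against 44.2, 39.5 and 43.98 in TNRC6B KO libraries. The gap between the groups was far wider than their spread, with a log2 fold change of -1.92 ± 0.22 (adjusted p = 7.2e-06, edgeR), and TNRC6A KO libraries, at 32.5 to 42.2, lay with the TNRC6B KO. ACSL5, which activates long-chain fatty acids, had 8.78, 4.96 and 9.55 in TNRC6A/B KO libraries, against 45.0, 37.1 and 31.9 in TNRC6B KO libraries. ID2, an inhibitor of basic helix-loop-helix factors, had 19.9, 27.6 and 10.4 in TNRC6A/B KO libraries, against 69.1, 58.9 and 54.3 in TNRC6B KO libraries. VSNL1, a calcium sensor known from neurons, fell by 2.12 on the log2 scale, and AC121761.1, which has no gene name, by 2.04. AC091198.1, also without a name, had a log2 fold change of -2.34 but spread widely within the groups. It had 7.61, 29.8 and 53.4 in TNRC6A/B KO libraries, against 66.7, 162 and 247 in TNRC6B KO libraries. TNRC6A KO libraries, at 52.9 to 116, overlapped both. MALSU1, ANKMY2, LSM5 and CCZ1B fell by 1.66, 1.57, 1.54 and 1.53, and all 4 lie on chromosome 7.

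**Figure D4:**
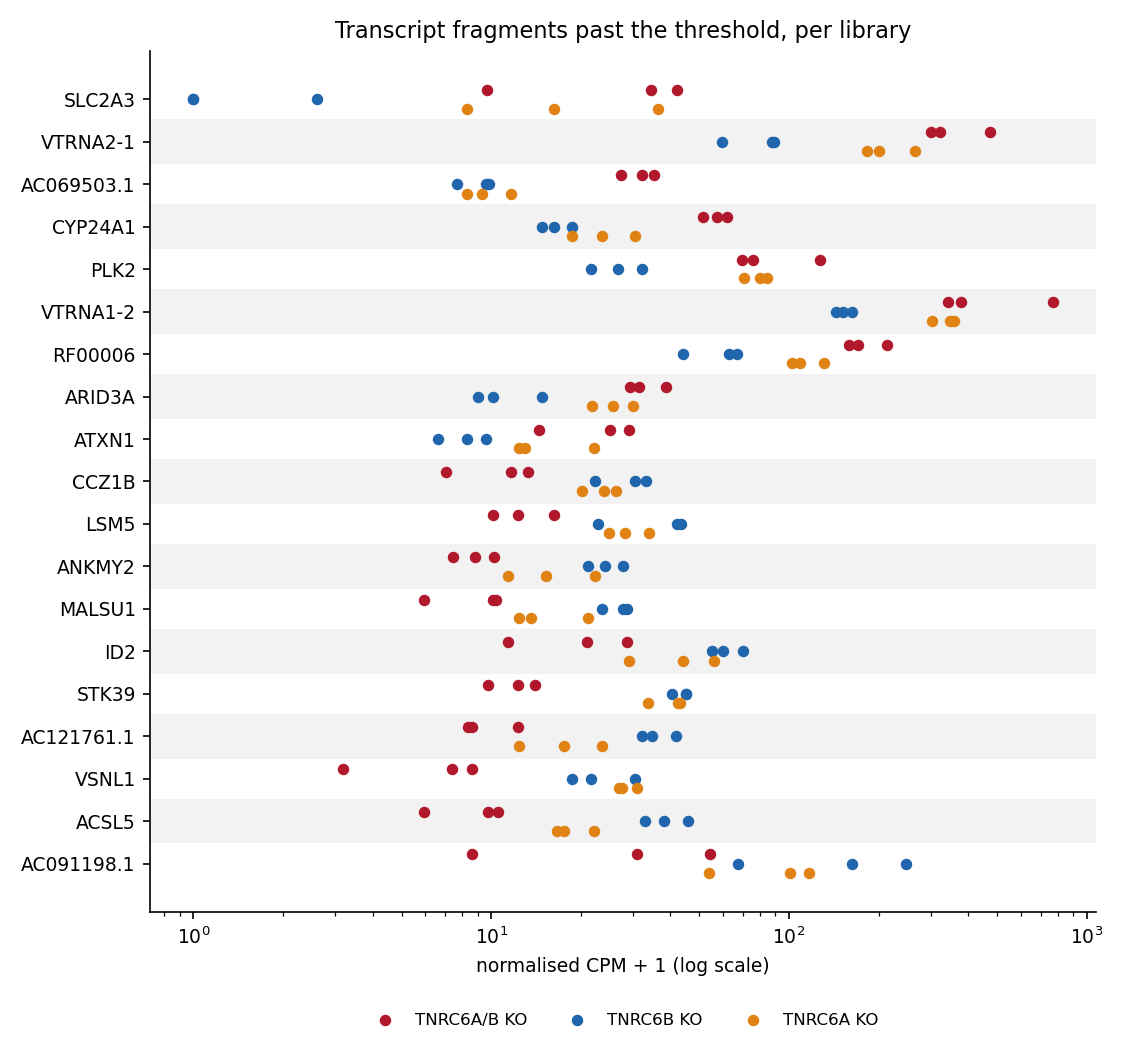
Normalised CPM + 1 (x axis, log scale) of the named genes that rose or fell most (y axis) in each library of TNRC6A/B KO (red), TNRC6B KO (blue) and TNRC6A KO (orange); RF00006 lies inside VTRNA2-1. Red and blue points do not overlap for any gene shown because genes were chosen on that condition, and SLC2A3 is near 0 in the TNRC6B KO.

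Most genes of some chromosome regions lay to one side of 0. Of 260 bins of 10 Mb with at least 20 tested genes, 5 had a median log2 fold change beyond 0.3 in either direction, and the lowest and highest medians came from the first bin of chromosome 7 (-0.69) and the last bin of chromosome 9 (0.55). The others were chromosome 9 from 120 to 130 Mb (0.40), chromosome 4 from 150 to 160 Mb (0.35) and chromosome 3 from 140 to 150 Mb (0.31). On chromosome 7, the bins from 20 to 30 Mb (-0.26) and 30 to 40 Mb (-0.21) stayed within 0.3, as did chromosome 5 from 0 to 10 Mb (-0.28). Over chromosome 7 from 0 to 40 Mb (GRCh38), 88 of 98 protein-coding genes were lower in TNRC6A/B KO cells, with a median log2 fold change of -0.81, and 121 of 159 tested genes of all types were lower, with a median of -0.43. Over chromosome 9 from 120 to 140 Mb, 128 of 140 protein-coding genes were higher, with a median of 0.54, and 168 of 196 genes of all types, with a median of 0.47, while the median of the 7878 protein-coding genes elsewhere was -0.02. Both regions were chosen after these values were seen, and the figures describe them without a test. In the chromosome 7 region 16 of 159 genes of all types fell, against 0.4% of all genes, and 0 rose. The falls included RAC1, a small GTPase of cell migration, CYCS, cytochrome c, CBX3, a heterochromatin protein, and TOMM7, part of the mitochondrial import pore. Those 4 fell by 0.81, 0.91, 1.01 and 1.11 on the log2 scale. In the chromosome 9 region 10 of 196 genes of all types rose, against 0.538% of all genes, and 0 fell. The rises included SPTAN1, a spectrin, MRPL41, a mitochondrial ribosomal protein, and SNHG7 with its embedded SNORA17B entries, which share reads.

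Each TNRC6A/B KO library showed the shift. Measured against the mean of the TNRC6B KO, the median protein-coding gene of the chromosome 7 region was at -0.61, -0.52 and -0.83 (log2 of normalised CPM + 1) in the TNRC6A/B KO libraries, against 0.03, -0.06 and 0.06 in the TNRC6B KO libraries. Over genes of all types the TNRC6A/B KO libraries were at -0.45, -0.37 and -0.54. The protein-coding median was at -0.02, -0.03 and 0.03 in the TNRC6A KO libraries and at -0.07, 0.03 and -0.15 in the WT libraries. For the chromosome 9 region the median protein-coding gene was at 0.53, 0.49 and 0.56 in the TNRC6A/B KO libraries, against 0.05, 0.02 and -0.03 in the TNRC6B KO libraries. TNRC6A KO libraries, at 0.02, 0.003 and 0.09, overlapped the TNRC6B KO, while WT libraries, at -0.15, -0.08 and -0.15, all lay below it. The TNRC6A/B KO did not overlap the TNRC6B KO, the TNRC6A KO or WT in either region. Against TNRC6A KO, the protein-coding medians were -0.75 and 0.50, and those of all gene types -0.52 and 0.41. These 2 regions held 26 of the 122 called genes, 10 of the 70 higher and 16 of the 52 lower. Loss of TNRC6A and other differences between the lines cannot be told apart in these genes. The miRNAs of the regions followed less: 20 miRNAs from the chromosome 7 region had a median log2 fold change of -0.15, 23 from the chromosome 9 region had 0.13, and 0 passed.

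**Figure D5:**
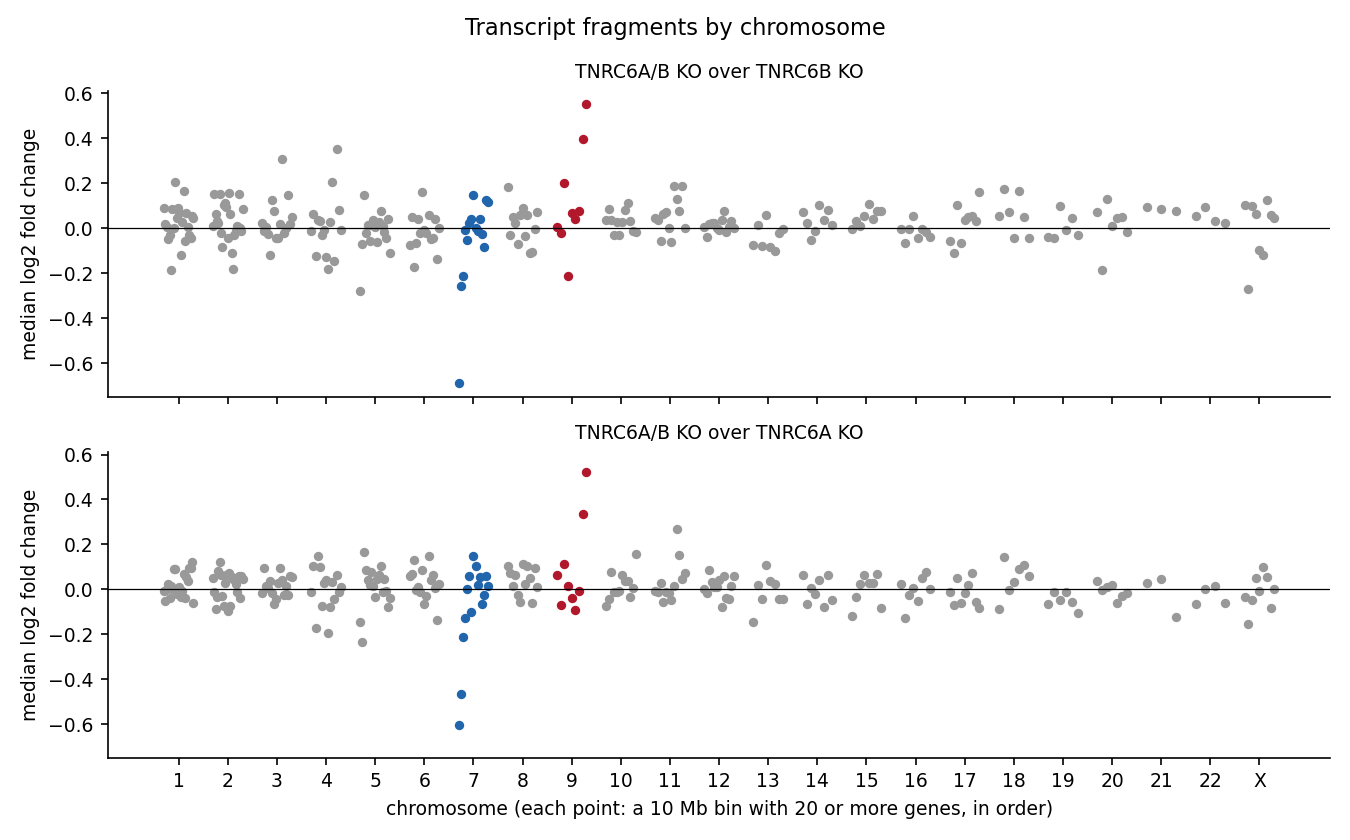
Median log2 fold change of transcript fragments (y axis) in each 10 Mb bin with 20 or more tested genes, by chromosome (x axis), for TNRC6A/B KO over TNRC6B KO (top) and over TNRC6A KO (bottom), which share the TNRC6A/B KO libraries. In the top panel the lowest bin, at -0.69, is the first of chromosome 7 (blue) and the highest, at 0.55, the last of chromosome 9 (red).

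Genes of miRNA-guided repression showed 1 change. Of 13 genes listed (TNRC6 and AGO proteins, DROSHA, DGCR8, DICER1, XPO5, CNOT1 and ZSWIM8), 11 were tested, 0 rose and 1 fell, the targeted TNRC6A (log2 fold change -1.41 ± 0.23, adjusted p = 0.000714, edgeR). DICER1, the enzyme that cuts hairpins to miRNAs, had 39.2, 42.5 and 40.4 normalised CPM in TNRC6A/B KO libraries, against 20.9, 26.1 and 24.1 in TNRC6B KO libraries. Its groups did not overlap, and its log2 fold change of 0.77 ± 0.21 did not pass (adjusted p = 0.087, edgeR). AGO2, the Argonaute that can slice its target, had 72.6, 78.6 and 83.3 in TNRC6A/B KO libraries, against 57.0, 52.9 and 47.4 in TNRC6B KO libraries (log2 fold change 0.58 ± 0.20, adjusted p = 0.208, edgeR). TNRC6C, the remaining paralog, had 29.8, 23.4 and 24.7 in TNRC6A/B KO libraries, against 18.5, 16.4 and 18.1 in TNRC6B KO libraries (log2 fold change 0.56 ± 0.21, adjusted p = 0.263, edgeR).

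Lists of textbook targets were described by counts. They were written with the leading genes known, so their direction is not independent evidence. The share of all genes that rose was 0.538%. Of 25 textbook let-7 targets 21 were tested, 3 rose (CDK6, CCND1 and ARID3A), 0 fell, and the median log2 fold change was 0.26, against 0.01 over all genes. CDK6 and CCND1 held no match to the let-7 seed in the search described below. HMGA1 of the same list was lower without passing, at 228, 227 and 160 in TNRC6A/B KO libraries, against 321, 314 and 285 in TNRC6B KO libraries. Of 18 tested textbook targets of miR-17 and its relatives, 3 rose (CDKN1A, CCND1 and ANKRD52, a regulatory subunit of the phosphatase that recycles Argonaute) and the median was 0.53. Of 23 tested p53 targets, 4 rose, CDKN1A, MDM2 and PLK2 among them, 0 fell and the median was 0.74. Of 17 tested targets of YAP and TEAD, 4 rose, CYR61, ANKRD1 and PTPN14 among them, 0 fell and the median was 0.83, the same with ANKRD1 at its bound. CYR61, a matricellular protein, had 23.4, 21.96 and 21.3 normalised CPM in TNRC6A/B KO libraries, against 4.82, 10.3 and 6.90 in TNRC6B KO libraries. ANKRD1, a repeat protein of muscle and of YAP-active cells, had 45 counts in TNRC6A/B KO cells, against 0 in TNRC6B KO cells, at least 11.2-fold higher with 3 counts over the group as the floor. PTPN14 held its call without only 1 of the 6 libraries in turn.

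Seed matches in 3′ UTRs were then set beside the fold changes of all genes. The 10 most abundant WT miRNAs hold 6 different seeds, and the 7-base matches to bases 2 to 8 were searched on the sense strand of the 3′ UTR of the most counted transcript of 8068 protein-coding genes (GENCODE v29). The match to the let-7 seed, CTACCTC, was in 10.7% of these UTRs, and those 862 genes had a median log2 fold change of 0.06 with 11 higher and 5 lower. Over all 8068 genes 59 were higher and 49 lower. The UTRs with the let-7 match were longer, with a median of 3349 bases against 1402 over all. Genes with no match to any of the 6 had a median of -0.05, with 1 match -0.01, with 2 or 3 matches 0.02 and with 4 or more 0.07, against -0.02 over all. Their UTRs lengthen in the same order, with medians of 675, 1808, 3049 and 5988 bases. Among UTRs of up to 774 bases the medians were -0.03 with 1 or more matches and -0.08 without, among the next UTRs in length, of up to 2283 bases, 0.01 with and -0.04 without, and among longer UTRs 0.02 with and 0.01 without. With 2 or more matches the medians were -0.15 (44 genes), 0.03 and 0.04 in the same order of length. In the shortest UTRs the median therefore did not increase with the number of matches. Sites of the genes described above show what was matched, with the match in capitals and up to 14 bases before and 1 after it.
ARID3A, let-7 site at base 2461 of a 3869-base 3′ UTR, chromosome 19: ctgcctatctctgtCTACCTCa
ARID3A, second let-7 site at base 3578, chromosome 19: cataaaactactctCTACCTCt
CDKN1A, let-7 site at base 943 of a 1539-base 3′ UTR, chromosome 6: agggcaccctagttCTACCTCa
CDK6, miR-23a site at base 1885 of a 10219-base 3′ UTR, chromosome 7: attctttgcagcttAATGTGAt
CDK6, miR-191 site at base 7039, chromosome 7: ggtccctagaaaaaTTCCGTTg
CCND1, miR-23a site at base 2171 of a 3192-base 3′ UTR, chromosome 11: atcaattttgacttAATGTGAt
PLK2, which also rose, holds no match to any of the 6 seeds. A match is a description of letters and not a measured site.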

How the data were processed

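Each deposited file holds raw read counts per RNA feature for 1 library, as the authors made them. Per the labels' protocols, whole-cell RNA was extracted with Trizol and 1 µg was used in TruSeq Small RNA kits. Per the submitters' processing notes, cutadapt 1.16, Bowtie 1.1.2 and the hg38 (GRCh38) build were used. The treatment of reads that match several features was not given in the sources used here. Paralogs, overlapping genes and RNA copies may therefore share reads.

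Entries for miRNA variants were summed to their miRNA, and Ensembl entries to genes of GENCODE v29. 207 entries that span several genes were left out of the gene sums. The features (mature miRNAs, other small RNAs, and gene sums of transcripts) were each fitted with edgeR 4.0.16 (R 4.3.3) over the 24 whole-cell libraries of 8 groups, with TMM factors, filterByExpr (min.count 10, min.total.count 15), the quasi-likelihood F test and Benjamini-Hochberg adjustment over all features at 0.05. SE is the fold change over the root of F. Arm ratios used limma 3.58.1 with a pseudocount of 0.5, and hairpins entered when the weaker arm averaged 10 counts and the pair 50. Shares used exact permutation tests. Intervals and floors cover counting error only, since the reads carry no molecular identifiers stated in the sources used here.

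Named features are up to 10 rises and 10 falls of largest fold change, reaching 20 CPM in either group without overlap between them, plus the 10 most abundant WT miRNAs and up to 4 members per list by level. For rises and falls named by this rule, the lack of overlap was set by the choice and is no further result. For other small RNAs up to 5, for hairpins up to 3 and for the other contrasts up to 4 were taken each way, filled by smallest p where few passed. The members and lists were chosen with earlier results of these data known. The gene sums, gene lists, chromosome bins and seed matches were added after the data were seen.

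The replicate numbers of TNRC6A/B KO and TNRC6A KO libraries may mark pairs. Their deviations from the group means correlated at 0.14, 0.28 and 0.28 over miRNAs. That is a hint from the data only, since the labels do not say what a number marks.

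The fits were tested on simulated data. Alternatives were DESeq2 1.42.0, other scalings and filters, other sets of groups, a block on the replicate number and omission of single libraries. 1 gene that meets the naming rule is not reported here. RefSeq mature sequences matched 1583 of 1997 tested miRNAs.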

Additional observations from a re-analysis of the deposited data

Results flagged for a closer look

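The difference between the effect of TNRC6A loss with TNRC6B absent (TNRC6A/B KO over TNRC6B KO) and with TNRC6B present (TNRC6A KO over WT) was tested as an interaction term, and the 8 miRNAs named by rule are listed here because that test passed (edgeR quasi-likelihood). The log2 difference was 6.74 for miR-6787-5p, 6.53 for miR-5589-5p, 6.35 for miR-128-2-5p and 5.85 for miR-10396b-3p. It was -11.94 for miR-3684, -9.69 for miR-5089-5p, -7.56 for miR-5699-3p and -7.29 for miR-4291.

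miR-6787-5p had 28.6, 29.5 and 47.3 normalised CPM in TNRC6A/B KO libraries, against 44.3, 70.6 and 14.4 in TNRC6B KO libraries, and 42.8, 36.3 and 32.3 in TNRC6A KO libraries, against 4586, 3892 and 6374 in WT libraries. miR-3684 had 6165, 7903 and 7015 in TNRC6A/B KO libraries, against 4743, 7400 and 5074 in TNRC6B KO libraries, and 4521, 9091 and 15000 in TNRC6A KO libraries, against 0, 0 and 4.45 in WT libraries. For all 8 the TNRC6A/B KO over TNRC6B KO fold change lay between -0.56 and 1.5 on the log2 scale, while TNRC6A KO over WT lay between -7.05 and 12.24. The WT libraries differ from every TNRC6 knockout library in their tRNA and snoRNA shares, and the set of libraries and the knockout cannot be told apart in these values. Shares of the Argonaute knockout libraries were not compared.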

How the results depend on the processing

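For TNRC6A/B KO against TNRC6B KO, the 12 miRNA calls became 2 with the miRNA total alone as scale, 19 with the total of all RNAs, 5 with a minimum count of 50, 2 with only these groups and 3 with WT and the TNRC6 groups; leaving out 1 library gave 4 to 32. The 4 other small RNA calls became 2 with RLE factors, 1 with the total of all RNAs, 2 with their own total, 9 with DESeq2, 0 with only these groups and 1 with the replicate block; leaving out 1 library gave 0 to 3. The 122 transcript calls (a result added after seeing the data, with all its alternatives) became 72 with the total of all RNAs, 56 with their own total, 182 without a filter, 251 over protein-coding genes only and 73 over single entries. Leaving out 1 library gave 51 to 173. Of the 122 calls, 96 lay outside the chromosome 7 and 9 regions, a count within the main fit, as no fit was made without these regions. DESeq2 called 48 higher and 71 lower transcripts, the protein-coding fit 137 and 114, and the unfiltered fit 136 and 46. The 1 arm balance call became 2 with a pseudocount of 5 and 0 with both arms at 50 counts; leaving out 1 library gave 0 to 1. The 1 class without overlap became 2 to 5 when 1 library was left out. Against TNRC6A KO, the 3 calls became 5 with DESeq2 and 5 with the replicate block; leaving out 1 library gave 1 to 6. The causes were not tested, beyond fewer features or libraries where the alternative has them.

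For TNRC6A/B KO against TNRC6B KO the labels do not say what the replicate numbers mark. Deviations from the group means correlated at 0.14, 0.10 and 0.15 over miRNAs, and at 0.01, 0.28 and 0.23 over other small RNAs. The replicate block gave 13 miRNA calls, 1 other small RNA call, 126 transcript calls and 1 arm call. The sign-flip test of the miRNA share by number gave p = 0.25, the smallest it allows (exact). Of 1957 values of single features under alternatives, 1772 stayed on their side of the threshold, 137 lost a call, 11 gained one and 37 that had not passed moved by over their SE. No called value changed sign, while 72 values of 30 features that had not passed did, 22 of them without TNRC6A/B KO replicate 3, where let-7a-5p was at -0.45, let-7b-5p at -0.40, let-7f-5p at -0.33 and miR-31-5p at -0.34, against 0.35, 0.53, 0.19 and 0.11 with it. The TNRC6B KO libraries held 283055 to 345446 miRNA counts, so a miRNA at 20 CPM rests on few counts there.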
